A study of Mus musculus with 11 samples.

Results

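cxcl2 and cxcl6 encode chemokines that attract neutrophils, and they are 2 of the 93 genes measured in spleen RNA of 11 female mice. The pair was chosen by measured values of these mice. In an earlier fit, cxcl2 was picked by the p of its difference between cGAS/Mrl and WT/Mrl mice, and cxcl6 by the size of its rise from uninjected B6 to MRL mice, so that both contrasts are given below as a description with no test of the pair. The DMXAA-injected mice were not used in the choice, but the mice they are compared with were. The choice of cxcl2 used the MRL mice and that of cxcl6 the MRL and uninjected B6 mice. Of the pair, therefore, only cxcl2 in DMXAA-injected against uninjected B6 mice was tested. Intervals given for other differences of the pair and of its ratio are not to be read as tests. The SE and p of this test still draw on the spread of the MRL mice that chose cxcl2, so that it is not independent of the choice.

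RNA was counted with a custom NanoString nCounter probe set, in which color-coded probes are hybridized to RNA and counted without amplification, from 50 ng of total RNA per mouse. The sample titles name separate mice in 5 groups. The lupus-prone mice were 3 WT/Mrl and 4 cGAS/Mrl mice, called MRL mice together. The C57BL/6 (B6) mice were 1 WT/B6 mouse, 1 cGAS KO/B6 mouse and 2 WT/B6 mice that had received DMXAA. This compound binds and switches on mouse STING, the adaptor downstream of the DNA sensor cGAS. The titles of the MRL mice name neither the Fas lpr mutation nor a knockout. From the paper, both groups were taken to carry Fas lpr and the cGAS/Mrl mice to lack cGAS through CRISPR/Cas9 removal of an exon, made directly in the MRL strain, whereas the B6 knockout came from a separate embryo resource. The labels give spleen as the tissue, whereas the paper speaks of total splenocytes, so that how much of the stroma was in the samples is not known. Dose and time of the injection are not given in the sources used here. The paper states an age for spleen weights and flow cytometry of MRL mice, and none separately for the RNA samples. The uninjected mice, 1 per genotype, have no replicate of their own, and strain and injection cannot be told apart where MRL mice are set against injected B6 mice. The panel holds no probe for cGAS, STING or Fas, and the genotypes could not be checked from these values.

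CXCL1, CXCL2 and CXCL5 are small secreted proteins that carry a Glu-Leu-Arg motif and bind CXCR2, the receptor that draws neutrophils out of bone marrow and blood into tissue. Macrophages, endothelial cells and stromal cells release them within hours of inflammatory signals, and the transcription factor NF-kB is a main activator of their genes. In the spleen, neutrophils are found mainly in the red pulp and the marginal zone.

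The name cxcl6 needs care in the mouse. The RefSeq gene table for GRCm38.p6 has 0 genes with the symbol Cxcl6 and gives that name as a synonym of 1 gene, Cxcl5, so that the row may measure Cxcl5. The probe sequence was not used here, and the deposited name is kept. Cxcl5 and Cxcl2 lie in the same cluster on chromosome 5, with 5 protein-coding genes between them, Ppbp, Pf4, Cxcl3, Cxcl15 and Cxcl1. Of these neighbors only cxcl1 is on the panel.

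The deposited signal of each mouse was a whole number of counts multiplied by a single factor, and the counts were read back from it. The total count was 3612 in the WT/B6 mouse and 12386 in the cGAS KO/B6 mouse, compared to 28406 to 58404 in the MRL mice. After DMXAA it was 647148 and 600677. The median count of the 93 genes was 21 and 36 in these B6 mice, 106 to 207 in the MRL mice, and 681 and 605 after DMXAA. Levels are therefore given relative to this panel median, as log2(count + 1) minus its median over the 93 genes of the mouse. Such a value is a gene's standing among immune genes, many of which moved, and not an amount per cell. The median difference of all 93 genes on this scale was −0.88 between DMXAA-injected and uninjected B6 mice, −0.81 between DMXAA-injected and MRL mice, −0.07 between MRL and uninjected B6 mice, and −0.01 between the MRL genotypes. On log2 of the deposited signal it was 6.80, 1.84, 4.84 and 0.07. On that scale limma took 1 common spread for all genes, and its adjusted p are too small to be read at face value.

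cxcl2, a chemokine released early by macrophages and other cells, was high after DMXAA and low in all other mice. It was counted 6101 and 5150 times in the DMXAA-injected mice, 6 times in the WT/B6 mouse and 14 times in the cGAS KO/B6 mouse. The counts were 57, 39 and 36 in the WT/Mrl mice and 12, 18, 33 and 34 in the cGAS/Mrl mice. The 95% Poisson interval was 2.20 to 13.1 for the count of 6 and 7.65 to 23.5 for the count of 14, and these intervals cover counting error only. Counts this low may be close to background, and negative-control probes were not analysed here. Relative to the panel median, the log2 level of cxcl2 was 3.16 and 3.09 after DMXAA, −1.65 in the WT/B6 mouse and −1.30 in the cGAS KO/B6 mouse. It was −0.88, −2.13 and −2.49 in the WT/Mrl mice and −3.56, −3.42, −2.17 and −2.26 in the cGAS/Mrl mice. Both injected mice stood far above the other 9. The WT/Mrl values took in those of both uninjected mice and overlapped with the cGAS/Mrl values, whereas the uninjected mice lay above all 4 cGAS/Mrl mice. The means fell in the order DMXAA 3.12 ± 0.05 (SD, n = 2), cGAS KO/B6, WT/B6, WT/Mrl −1.83 ± 0.84 (SD, n = 3) and cGAS/Mrl −2.85 ± 0.74 (SD, n = 4). The uninjected and WT/Mrl levels did not differ beyond the spread of the WT/Mrl mice.

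cxcl6, a CXCR2 ligand of epithelial and stromal cells if the row is Cxcl5, was high in MRL as well as in DMXAA-injected mice. It was counted 10 times in the WT/B6 mouse and 9 times in the cGAS KO/B6 mouse, with Poisson intervals of 4.80 to 18.4 and 4.12 to 17.1. The counts were 207, 405 and 475 in the WT/Mrl mice, 303, 448, 270 and 448 in the cGAS/Mrl mice, and 1734 and 1903 after DMXAA. All 7 MRL mice thus had at least 207 counts, against at most 10 in uninjected B6 mice, in the contrast that chose cxcl6. These counts are not scaled, and the panel median also differed, at 106 to 207 in MRL and 21 and 36 in uninjected mice. On the deposited signal 93 of the 93 genes were called higher in MRL mice. Relative to the panel median, the log2 level was −1 in the WT/B6 mouse and −1.89 in the cGAS KO/B6 mouse. It was 0.96, 1.21 and 1.19 in the WT/Mrl mice, 0.99, 1.15, 0.82 and 1.42 in the cGAS/Mrl mice, and 1.35 and 1.65 after DMXAA. The MRL genotypes overlapped, and the highest cGAS/Mrl mouse lay above the lower DMXAA-injected mouse. The means were 1.5 ± 0.22 (SD, n = 2) after DMXAA, 1.12 ± 0.14 (SD, n = 3) in WT/Mrl and 1.09 ± 0.25 (SD, n = 4) in cGAS/Mrl mice, an order in which the MRL groups did not differ beyond their spread.

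**Figure D1:**
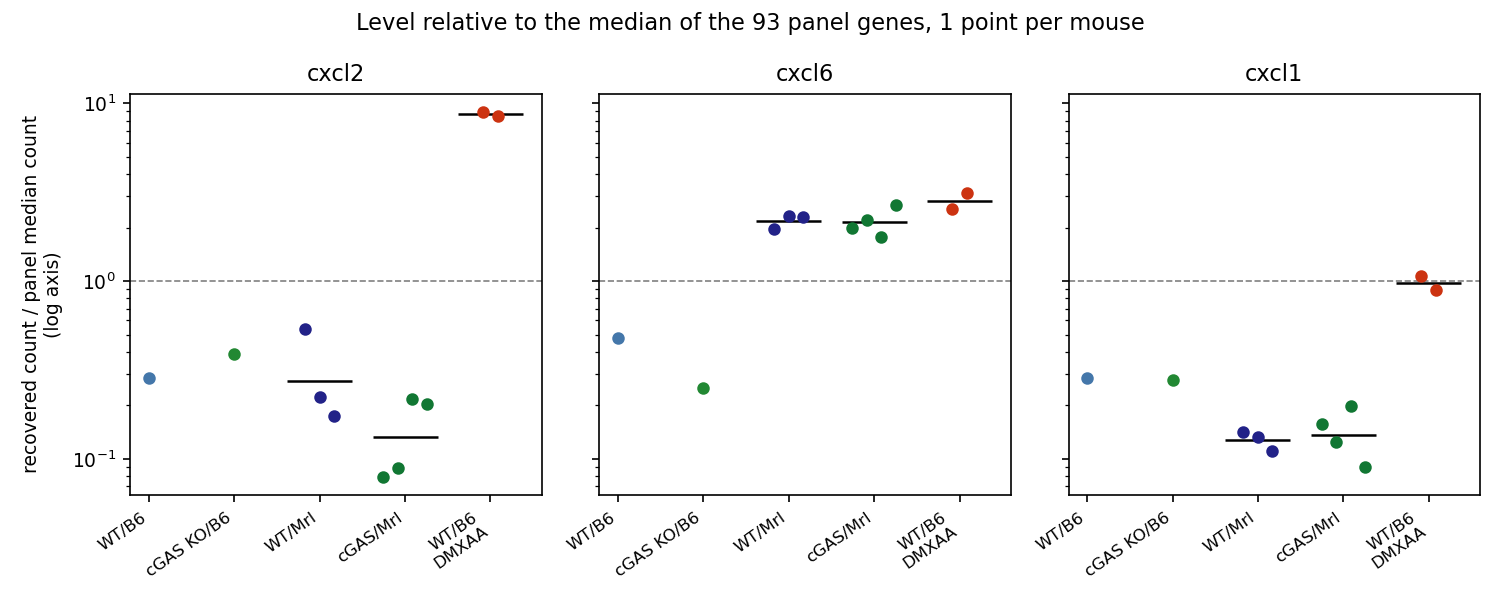
Recovered count divided by the mouse's median count over the 93 genes (log axis) for cxcl2, cxcl6 and cxcl1. Each point is a mouse, bars are geometric means of groups with more than 1 mouse, and the dashed line is the panel median. cxcl2 was 8.96 and 8.51 times the panel median after DMXAA and under 1 in all other mice, whereas cxcl6 was 1.78 to 2.68 times the panel median in the MRL mice.

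The first comparison set the DMXAA-injected against the uninjected B6 mice. The titles name no mice injected without DMXAA and none that lack STING. Effects of the injection itself and of STING activation can therefore not be told apart. Compared to the 2 uninjected B6 mice, cxcl2 rose by 4.60 on the log2 scale relative to the panel median (SE 0.58, 95% interval 3.29 to 5.91, adjusted p = 2.9e-05 by limma), or 24.3-fold. cxcl6 was 2.94 higher (SE 0.21, 95% interval 2.47 to 3.42), or 7.69-fold, which is given as a description with no p, since the low values of the same 2 uninjected mice put it in the pair. Both DMXAA-injected mice were above both uninjected mice for each gene. Of the 93 genes, 33 (35.5%) were called higher and 49 (52.7%) lower in this comparison, so that a call of cxcl2 as higher is shared with about 1 gene in 3. By size of rise, cxcl2 was at place 8 and cxcl6 at place 12 of 93. On the deposited signal without centring the differences were 11.68 for cxcl2 and 10.16 for cxcl6, where 92 of the 93 genes were called higher. Subtraction of each mouse's 10th percentile as a background gave 6.22 (SE 1.37) for cxcl2 and 4.88 for cxcl6. The fit assumes for the lone WT/B6 and cGAS KO/B6 mice the same spread as in the replicated groups. For cxcl2 that spread, and with it the SE and p, came largely from the MRL mice that chose the gene. Without WT/Mrl mouse 1 the SE of the cxcl2 difference was 0.47. The 4 counts behind the control level were 6 to 14. More RNA per cell and more cells that make it cannot be told apart in bulk spleen RNA.

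The second comparison set the injected mice against the MRL mice, in which disease is chronic. Both genes were chosen on values of the MRL mice, and their differences here are a description with no p and no call. cxcl2 was higher after DMXAA by 5.47 (SE 0.47, 95% interval 4.42 to 6.52), or 44.3-fold, and both injected mice lay above all 7 MRL mice. cxcl6 differed by 0.39 (SE 0.17, 95% interval 0.01 to 0.77), or 1.31-fold, and the groups overlapped. Of the 93 genes, 31 (33.3%) were called higher and 52 (55.9%) lower. The size of the cxcl6 difference turns on the scale, since it was 0.92 when the panel median was taken without interferon-stimulated genes, 3.03 on the deposited signal and 0.11 when centred on the upper quartile. Leaving out DMXAA-injected mouse 2 gave 0.24.

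The ratio of cxcl2 to cxcl6 counts does not depend on how a mouse is scaled. Its level has no meaning, since the genes have different probes, and only its differences between mice are read. The ratio was 3.52 and 2.71 in the DMXAA-injected mice, 0.275, 0.0963 and 0.0758 in the WT/Mrl mice, and 0.0396, 0.0402, 0.122 and 0.0759 in the cGAS/Mrl mice. The injected mice were thus above all MRL mice, and the MRL genotypes overlapped. In the WT/B6 mouse the ratio was 0.600, with an exact 95% binomial counting interval of 0.179 to 1.82, and in the cGAS KO/B6 mouse it was 1.56, with an interval of 0.627 to 4.07. The interval of the cGAS KO/B6 mouse took in the ratios of both injected mice, whereas that of the WT/B6 mouse lay below both. The log2 ratio was 1.66 higher in injected than in uninjected B6 mice in a limma fit over all 11 mice (SE 0.64, 95% interval 0.21 to 3.11). Both uninjected mice also had a higher ratio than all MRL mice, though the interval of the WT/B6 mouse took in the highest MRL ratio. In the same fit the log2 ratio was −3.42 in MRL compared to uninjected B6 mice (SE 0.52). This contrast chose cxcl6 for its rise, so that a lower ratio in MRL mice follows in part from the choice.

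The mean log2 ratio, with 1 count added to each gene, was 1.63 ± 0.27 (SD, n = 2) after DMXAA and −3.52 ± 0.94 (SD, n = 7) in the MRL mice. The difference was 5.15, or 35.4-fold, and it was 5.08 (SE 0.52, 95% interval 3.91 to 6.24) in the limma fit. No p is given for the ratio, since both genes were chosen on values of the mice it is compared in. The spread over the MRL mice came largely from cxcl2, whose log2 level relative to the panel median had an SD of 0.90, compared to 0.20 for cxcl6.

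**Figure D2:**
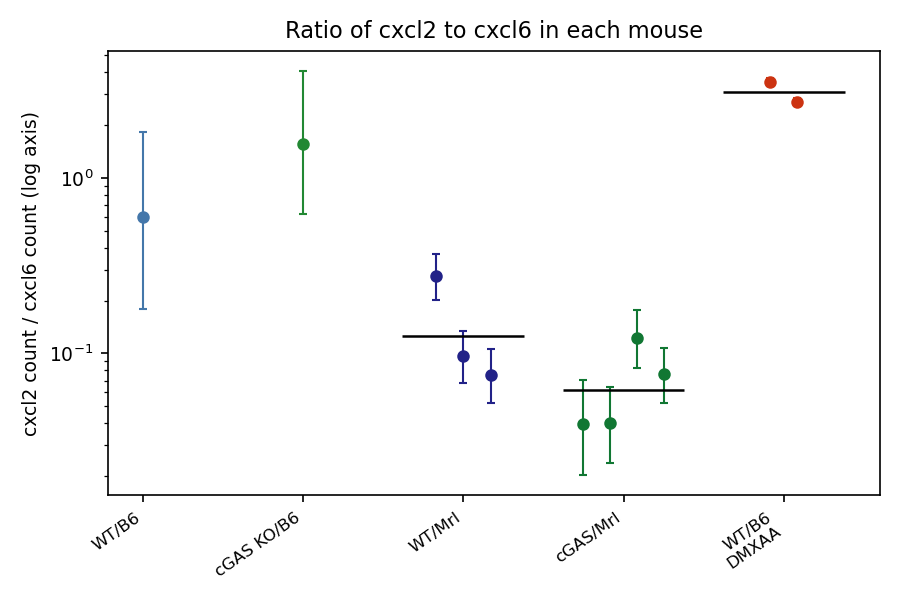
Ratio of the cxcl2 count to the cxcl6 count in each mouse (log axis), with exact 95% counting intervals. Horizontal bars are geometric means of groups with more than 1 mouse. The DMXAA-injected mice were at 3.52 and 2.71, above all MRL mice, which lay between 0.0396 and 0.275, and the uninjected B6 mice have wide intervals.

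cxcl1, a close relative of cxcl2 that binds the same receptor, was counted 731 and 541 times after DMXAA, 6 times in the WT/B6 mouse and 10 times in the cGAS KO/B6 mouse. Its counts were 15, 23 and 23 in the WT/Mrl mice and 24, 25, 30 and 15 in the cGAS/Mrl mice. As for cxcl2, the injected mice stood apart and the MRL genotypes overlapped. Relative to the panel median, cxcl1 rose by 1.67 from uninjected to DMXAA-injected B6 mice (SE 0.31, adjusted p = 0.000508 by limma). After DMXAA it was 2.83 higher than in MRL mice (SE 0.25, adjusted p = 1.9e-06 by limma), with both injected mice above all others. In MRL compared to uninjected B6 mice cxcl1 was called lower, as were 40.9% of all genes, at −1.16 (SE 0.25). The highest MRL mouse was at −2.30, below both uninjected mice, at −1.75 and −1.65. On the deposited signal this difference was 3.24, so that its sign depends on the scale.

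Since cxcl1 and cxcl2 both rose after DMXAA, though by unequal amounts, the 120 bases before each gene start are shown, from RefSeq for GRCm38.p6, plus strand. Cxcl1 and Cxcl2 matched the promoter table and Cxcl5 did not. Capitals mark matches to an NF-kB-like motif, GGG followed by any 3 bases and then TTCC, searched on both strands, with overlapping matches merged. Cxcl2 is at chr5:90903779-90903898 and Cxcl1 at chr5:90891125-90891244, both ending at the base before the gene start.
Cxcl2: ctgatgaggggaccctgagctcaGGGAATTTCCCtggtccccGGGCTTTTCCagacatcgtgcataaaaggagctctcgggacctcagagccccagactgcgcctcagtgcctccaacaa
Cxcl1: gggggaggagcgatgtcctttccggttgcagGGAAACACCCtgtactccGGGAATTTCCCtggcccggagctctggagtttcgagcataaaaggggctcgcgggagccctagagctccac
In the 300-base promoters of the table, 5.56% of 32851 hold this motif. Of the 4 promoters searched, those of Cxcl1, Cxcl2 and Cxcl10 held it and that of Cxcl9 did not. An interferon response-like motif, GAAA followed by any 2 bases and GAAA, is held by 3.44% of promoters and was found in that of Cxcl10 alone among these 4. A match is a description of the letters and not of binding.

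In the MRL mice, compared to uninjected B6 mice, the pair parted. cxcl6 was 2.55 higher relative to the panel median (SE 0.17, 95% interval 2.17 to 2.94), or 5.87-fold, at place 2 of 93 by size of rise, in the contrast that chose it. With the WT/B6 mouse as the only control the difference was 2.11, with the cGAS KO/B6 mouse 3.00, and on the deposited signal 7.12. cxcl2 was −0.87 relative to the panel median (SE 0.47, 95% interval −1.92 to 0.19) and 3.57 on the deposited signal, so that its sign depends on the scale. Of the 93 genes, 26 (28%) were called higher and 38 (40.9%) lower relative to the panel median, and on the deposited signal 93 were called higher.

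Between the MRL genotypes, the signal of cxcl2 as deposited was 38.2, 47.5 and 48.8 in WT/Mrl and 14.3, 20.3, 27.2 and 33.5 in cGAS/Mrl mice. The groups did not overlap on this scale, in the contrast that chose cxcl2, but they did relative to the panel median. How many of the 93 genes separate the genotypes in this way was not counted. The difference was −1.02 relative to the panel median (SE 0.44), the lowest of the 93 genes, and it was −0.54 without WT/Mrl mouse 1 and −2.13 after subtraction of a background. For cxcl6 the difference was −0.03 (SE 0.16, 95% interval −0.39 to 0.34). None of the 93 genes was called by limma (0%, 0 genes), while 3 had an unadjusted p under 0.05. limma's voom on the counts called 0 genes, with 4 at an unadjusted p under 0.05.

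Patterns over the 5 group means were compared after each gene was centred on its own mean over the groups, so that only the shape and not the level counts. The genes most like cxcl2 were tnfa, viperin and Ifit2, with a root mean square difference of 0.656, 0.675 and 0.690 on the log2 scale among 87 genes with enough counts. tnfa encodes the inflammatory cytokine TNF, and viperin and Ifit2 encode antiviral proteins induced by interferon. For cxcl6 they were Ifi47, Icam1 and socs1, at 0.706, 0.761 and 0.869. Ifi47 encodes an interferon-induced GTPase, Icam1 an adhesion molecule that leukocytes bind on endothelium, and socs1 an inhibitor of cytokine signaling. cxcl6 came at place 33 in the order of likeness to cxcl2, at 2.10, and cxcl2 at place 50 in that to cxcl6.

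Of 6 other cytokines known to promote neutrophil recruitment, 2 were called higher and 4 lower in DMXAA-injected than in uninjected B6 mice, relative to the panel median, against 35.5% and 52.7% of all 93 genes. tnfa rose by 5.18 (SE 0.18) and Il6, a driver of the acute-phase response, by 2.65 (SE 0.22). Il-1b and Il-1a, the interleukin-1 cytokines, were lower, at −5.86 and −3.41. Il23a, a subunit of interleukin-23, was at −4.30, and Il-33, an alarmin of stromal cells, was at −1.71. Il23a was counted 7 and 9 times in the uninjected mice and 14 and 6 times after DMXAA, and Il-33 1 and 2 times and 14 and 18 times, too few to read a direction. All 4 differences have the opposite sign on the deposited signal, at 1.82, 3.96, 2.73 and 4.35. Against the MRL mice, 2 were higher and 3 lower (33.3% and 55.9% of all genes), and Il-1b was −6.02 relative to the panel median and −3.40 on the deposited signal, with the same sign on both. The other 2 called lower, Il-1a and Il23a, were at 0.03 and 1.33 on the deposited signal. Between MRL and uninjected B6 mice, 0 were higher and 5 lower relative to the panel median (28% and 40.9% of all genes), all 5 of which were higher on the deposited signal. Of these 5, Il23a and Il-33 had 2 to 12 and 2 to 7 counts in the MRL mice, again too few to read a direction. The tnfa difference of −0.74 rests on the cGAS KO/B6 mouse, at 1.30, since the WT/B6 mouse was at −0.55, within the range of −0.62 to −0.02 in the MRL mice.

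Among the CXCR3 ligands, which attract activated T cells, cxcl10 rose by 6.29 (SE 0.18) and cxcl9 by 1.75 (SE 0.18) from uninjected to DMXAA-injected B6 mice. Against MRL mice cxcl10 was 5.10 higher after DMXAA, whereas cxcl9 was −2.22 relative to the panel median and 0.42 on the deposited signal. In MRL compared to uninjected B6 mice both were called higher (28% of all genes), cxcl9 by 3.98 and cxcl10 by 1.19, in the contrast that also chose cxcl6. The cxcl10 difference rests on the WT/B6 mouse, at −0.37, since the cGAS KO/B6 mouse was at 1.61, within the range of 1.60 to 2.17 in the MRL mice. Of 4 CC chemokine genes and receptors, ccl4 and ccl5, ligands for monocytes and T cells, rose after DMXAA by 7.19 and 2.82, while the receptors ccr1 and ccr2 were −2.91 and −1.40 relative to the panel median but 4.41 and 6.37 on the deposited signal. Against MRL mice 2 of these 4 were higher and 2 lower after DMXAA (33.3% and 55.9% of all genes), and ccr2 was −1.49 relative to the panel median and 1.15 on the deposited signal. Between MRL and uninjected B6 mice 1 was higher and 1 lower (28% and 40.9% of all genes), and the lower one, ccl4, was −1.05 relative to the panel median and 3.69 on the deposited signal.

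The cells behind these values could not be looked for. Lists of neutrophil, B cell, T cell, stromal and endothelial, erythroid and platelet markers and of housekeeping genes have 0 genes on the panel. The labeled tissue was therefore not checked, and the number of neutrophils in these spleens was not measured.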

How the data were processed

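Spleen RNA (total splenocytes in the paper) of 11 mice was hybridized to a custom nCounter probe set, 50 ng per mouse. The deposited values are a linear signal, which the authors normalized to housekeeping genes; background subtraction is not stated in the sources used here. The labels give spleen, and all mice are female. All 1023 values were whole multiples of a factor per mouse within 0.0001, and these whole numbers are the recovered counts. The members and all gene lists were chosen with earlier results of these data known.

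Values were log2(signal + signal of 1 count) minus the panel median of the mouse. limma 3.58.1 (R 4.3.3) was fitted over 11 mice in 5 groups, two-sided, and p-values were adjusted by Benjamini-Hochberg over 93 genes and called under 0.05. The fit was checked on simulated data with the same dispersion for all genes, for DMXAA-injected against MRL mice only. The contrast with the uninjected mice, in which cxcl2 was tested, was not checked in this way. The MRL and uninjected B6 levels are means of 2 group means. The uninjected control joins both genotypes because each is 1 mouse. Comparisons with a shared group are not independent. Counting intervals were computed with SciPy 1.17.1 (Python 3.11.15), and figures with Matplotlib 3.10.9.

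Genes named are the pair, those of the CXCR2 ligand, neutrophil-recruiting cytokine, CXCR3 ligand and CC chemokine lists, and for each member the 3 genes with the smallest root mean square difference over 5 group means, each gene centred on its mean over the groups, among genes with a highest count of at least 20. The alternatives were the pseudocount, the scale and centring, a background, a count filter, a robust fit, the mouse number as a block, other control mice and leaving out each mouse. Exact tests planned against MRL mice are not reported, since the choice of the pair used these mice. The cGAS KO/B6 control and voom were added after the data were seen.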

Additional observations from a re-analysis of the deposited data

How the results depend on the processing

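From uninjected to DMXAA-injected B6 mice, cxcl2 kept its direction under all 22 alternatives, from 3.84 to 11.68. Its call was kept in those that held both DMXAA-injected mice. The difference of cxcl6 kept its direction, from 2.18 to 10.16. Leaving out an MRL mouse and the robust fit could not move these differences, which stayed at 4.60 and 2.94. Such runs bear only on the SE and the call. The highest values came from the uncentred deposited signal, where 92 genes were called higher. The centred alternatives gave 3.84 to 6.22 for cxcl2 and 2.18 to 4.88 for cxcl6. In the description against MRL mice, cxcl2 was 5.47 and ranged from 4.96 to 8.11. cxcl6 was 0.40 with 5 counts added, 3.03 on the deposited signal, 0.92 without interferon-stimulated genes in the median, 0.39 in a robust fit and 0.38 with voom. Leaving out 1 mouse gave 0.24 to 0.54. The ratio difference was 5.08 with limma, 6.41 after subtraction of the 10th percentile and 4.58 with WT/Mrl mice only.

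In the description of MRL against uninjected B6 mice, cxcl2 moved to 3.57 on the deposited signal and lay between −1.35 and −0.39 in the centred alternatives. cxcl6 moved to 2.26 with 5 counts added, 7.12 on the deposited signal, 2.23 on that signal centred, 2.07 with the upper quartile, 4.54 after subtraction of the 10th percentile, 2.11 with the WT/B6 control and 3.00 with the cGAS KO/B6 control. Between genotypes, cxcl2 was −2.13 after that subtraction and −1.35 to −0.54 without 1 mouse. The cause of these shifts was not tested.

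On the deposited signal, genes higher and lower numbered 92 and 0 for DMXAA-injected against uninjected B6 mice (33 and 49 relative to the panel median), 54 and 5 against MRL mice (31 and 52), and 93 and 0 for MRL against uninjected B6 mice (26 and 38). With the upper quartile, 12 genes were higher in the last of these.

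With the mouse number as a block, cxcl6 differed by 0.42 between DMXAA-injected and MRL mice. The correlations of same-numbered MRL mice were −0.21, 0.25 and 0.08, so that the numbers do not pair the mice. The block takes up cGAS/Mrl mouse 4, the only mouse with that number. edgeR and DESeq2 were not run, and limma's voom on the recovered counts was run in their place.

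The uninjected B6 mice limit these results. Their counts of the pair were 6 to 14, and 46 of the 93 genes in the WT/B6 mouse had under 20 counts.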

Other observations

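The cxcl2 count was 8.35 and 9.52 times the cxcl1 count in the DMXAA-injected mice, against 0.5 to 3.80 times in the MRL mice. As with cxcl6, only differences of this ratio between mice can be read. In the WT/B6 mouse it was 1.00, with a counting interval of 0.267 to 3.74, and in the cGAS KO/B6 mouse 1.40, with an interval of 0.578 to 3.52. The injected mice were above all other mice, and this ratio was chosen after its values were seen and was not tested.

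Relative to the panel median, 5 of 15 NF-kB-inducible genes were called higher and 8 lower in DMXAA-injected than in uninjected B6 mice, against 35.5% and 52.7% of all 93 genes, and the median difference was −0.92, compared to −0.88 over all genes. Of 21 interferon-stimulated genes, 11 were higher and 6 lower, against the same shares, with a median of 0.48. Against MRL mice these were 5 and 7 of the NF-kB-inducible genes and 10 and 10 of the interferon-stimulated genes, where 33.3% of all genes were higher and 55.9% lower. On the deposited signal, 92 of the 93 genes were called higher in DMXAA-injected than in uninjected B6 mice.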
